A study of Mus musculus with 6 samples.

Results

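The genes described here encode enzymes and partner proteins that modify RNA, mostly by methylation, together with the readers of one such mark. They were chosen by symbol: every probe set whose symbol begins with Trmt, Nsun, Mettl, Alkbh, Tsen, Adat, Dus or Elp followed by a digit, every Ythd gene, Wtap and Fto. The rule found 80 genes among the 23185 named and tested. Ythdf2 is not analysed here. One of the 80, Alkbh3os1, is annotated as a long noncoding RNA antisense to Alkbh3.

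Total RNA was measured on 6 Affymetrix arrays of a group 2 innate lymphoid cell (ILC2) line from C57BL/6J mice, 3 labelled Myc knockout and 3 control. Every culture received IL-2 and IL-33 (10 ng/ml of each) and a lentivirus encoding GFP and a CRISPR guide, which was directed at Myc in the first group and non-targeting in the second. Sorting on GFP took place 6 days after transduction, so an array measured a pool of cells and not a clone. Nothing in the labels ties the 3 arrays of a group to separate cultures, and p-values therefore measure only the spread between these arrays, which may be technical.

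Transfer RNAs are the most heavily modified RNAs of the cell. Methyltransferases of the TRMT, NSUN and METTL families, the Elongator complex, dihydrouridine synthases and deaminases act on them, and their marks affect folding, stability and decoding. In messenger RNA, N6-methyladenosine is written by a complex built on METTL3, METTL14 and WTAP, can be removed by FTO and ALKBH5, and is bound by proteins with a YTH domain. MYC is known for raising transcription of genes for ribosome and tRNA production in growing cells. Several METTL and ALKBH proteins act on protein or DNA and not on RNA, and the 22 such or uncharacterised members, Alkbh3os1 included, were kept apart.

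Values are log2 RMA values, which are relative to the other arrays, and a value of one gene cannot be set against that of another. Differences are arrays labelled Myc knockout minus control on the log2 scale, given ± SE. Where the mean level of a group of arrays is given with ±, it is the SD of its 3 arrays. Of the 80 genes, 71 had a mean at or above the median over all genes of 3.34, 3 lay below it and 6 lay below the lower quartile of 2.10, where a probe set is near background. The 6 were Mettl21e, Mettl11b, Mettl21c, Mettl7b, Trmt9b and Alkbh3os1, and the 3 were Adat1, Mettl25 and Nsun7. RMA gave exactly equal values on at least 2 arrays of a group for 15 of the 80 genes (18.8%, against 25.8% of all genes), so an SD of 0 or close to it may not show the spread between samples.

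Myc itself, the targeted gene, was at 9.55, 9.79 and 9.73 on the arrays labelled Myc knockout, against 9.27, 9.33 and 9.39 on the control arrays. The mRNA was thus not lower under the knockout label (log2 difference 0.36 ± 0.080, limma's adjusted p = 0.127, exact two-sided permutation p = 0.1, the smallest that 3 against 3 arrays allow). An edited gene can still make mRNA, so this is a weak check, and every direction below rests on the labels. Of 12 ILC2 markers, 10 were at or above the median level, with Il17rb and Thy1 below it. Of these 12, Il5, a cytokine made by ILC2, rose (10.01 ± 0.064 on the arrays labelled Myc knockout and 9.53 ± 0.041 on control arrays, limma's adjusted p = 0.0386), and Il9r, the IL-9 receptor gene, fell (6.77 ± 0.062 on the arrays labelled Myc knockout and 7.32 ± 0.089 on control arrays, limma's adjusted p = 0.0405). Gata3 and Il7r differed by −0.25 and −0.22 without passing (limma's adjusted p = 0.173 and 0.263). Il2ra, Icos and Il13 differed by 0.19, 0.16 and 0.23, also without passing (limma's adjusted p = 0.232, 0.27 and 0.325). At an unadjusted p under 0.05 in limma, 4 of the 12 were higher and 3 lower, beside 6.97% and 7.91% of all genes. Their median log2 difference was 0.033. The averaged ILC3 markers (3 of 4 measured) lay between 2.05 and 2.21 on the arrays labelled Myc knockout, against 1.69 to 1.80 on control arrays, and of these Il17a rose (3.79 ± 0.14 on the arrays labelled Myc knockout and 2.84 ± 0.17 on control arrays, limma's adjusted p = 0.0353). Il22 and Il23r differed by 0.029 and 0.18, with overlapping groups and means below the lower quartile. Averaged T cell markers lay between 3.12 and 3.26 on the arrays labelled Myc knockout, against 3.18 to 3.29 on control arrays. Among them Cd3g differed by −0.43 (limma's adjusted p = 0.22). Cd3g and Cd8a, at 5.26 and 4.83 on average, were above the median level. NK cell and ILC1 markers lay between 3.47 and 3.62, against 3.46 to 3.59, where Prf1, at 7.45 on average, was the 1 gene above the median level. The B cell, macrophage and mast cell lists had means below the median level on all 6 arrays. Within them Pax5 and Cd68, at 3.47 and 4.52 on average, were above it. The part of these markers in the differences below was not tested, and in RNA from a pool of cells, fewer cells of a type and less RNA per cell cannot be told apart.

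None of the 80 genes passed over all genes tested in limma (Benjamini-Hochberg adjusted p under 0.05), where 0.453% of all 23185 genes did (0.254% higher and 0.198% lower). An unadjusted p under 0.05 was reached by 11 genes, with 3 higher and 8 lower on the arrays labelled Myc knockout. These are 3.75% and 10% of the 80 genes, beside 6.97% and 7.91% of all genes. The sign was negative for 55 of the 80 (68.8%, against 47.8% of all genes), with a median log2 difference of −0.039 against 0.0077 over all genes. Among all genes at or above the median level the median was −0.030, 58% were negative, and 7.76% were higher and 13.8% lower at that p. The 71 members at that level had a median of −0.037, and 49 of them were negative (69%). At that p 3 of the 71 were higher and 7 lower (4.23% and 9.86%). These shares rest on few genes, and their distance from those of genes of similar level was not tested.

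The negative majority depended on the scaling. After cyclic loess 41 of the 80 genes were negative (51.2%, against 48.9% of all genes), and at an unadjusted p under 0.05 there were 4 on either side, beside 7.34% of all genes higher and 6.83% lower. Past the adjusted threshold 0 of the 80 were higher or lower after cyclic loess, beside 0.302% and 0.164% of all genes. Median centring gave 61 negative (76.2%, against 54.7%), with 0 higher and 12 lower at that unadjusted p, where 5.24% of all genes were higher and 9.61% lower. Past the adjusted threshold there were again 0, beside 0.263% of all genes in either direction. Single arrays moved the counts as well. Leaving out control replicate 3 gave 1 higher and 4 lower, beside 5.65% and 6.52% of all genes. Leaving out Myc knockout replicate 1 gave 5 higher, beside 6.61% of all genes, and leaving out Myc knockout replicate 2 or replicate 3 gave 1 higher, beside 6.38% and 6.78%.

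**Figure D1:**
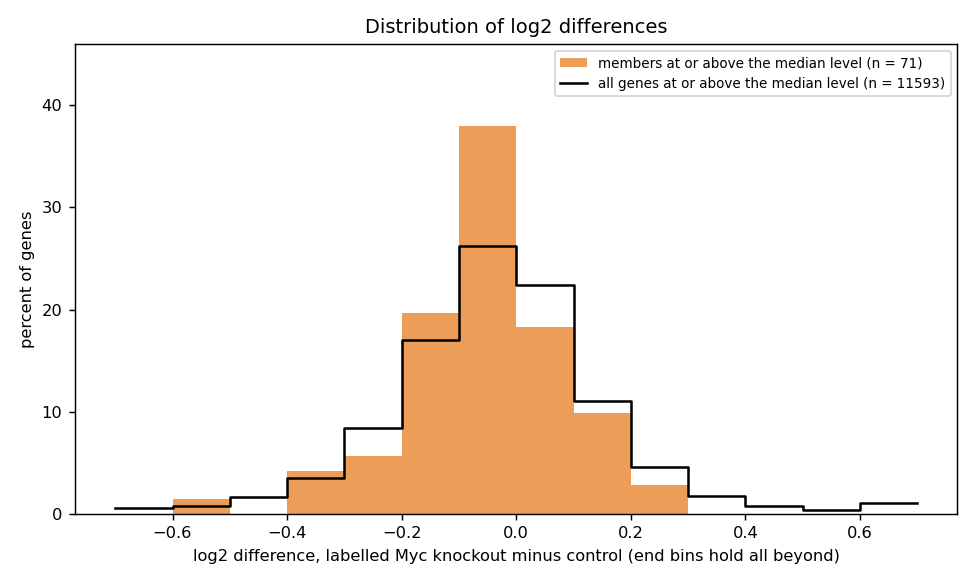
Distribution of log2 differences (x axis, arrays labelled Myc knockout minus control, bins of 0.1) as percent of genes (y axis) for the 71 genes of this group at or above the median level (orange bars) and for all 11593 genes at that level (black line); the end bins hold all genes beyond them. The bars centre on −0.037 and the line on −0.030, and 38% of the 71 genes, against 26.2% of all genes, lie between −0.1 and 0.

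Most differences were small, and limma's intervals bound them only against the spread between these arrays, which may be technical. The absolute log2 difference was under 0.1 for 42 of the 80 genes and over 0.3 for 4, and the largest was 1.46-fold. The 95% confidence interval lay wholly within 1.5-fold in either direction for 75 genes, and the SE ran from 0.052 to 0.28 with a median of 0.080. The widest intervals were those of Mettl7a3 and Mettl7a2, whose family has near-identical copies, so that signal may be shared between probe sets and the values are uncertain.

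**Figure D2:**
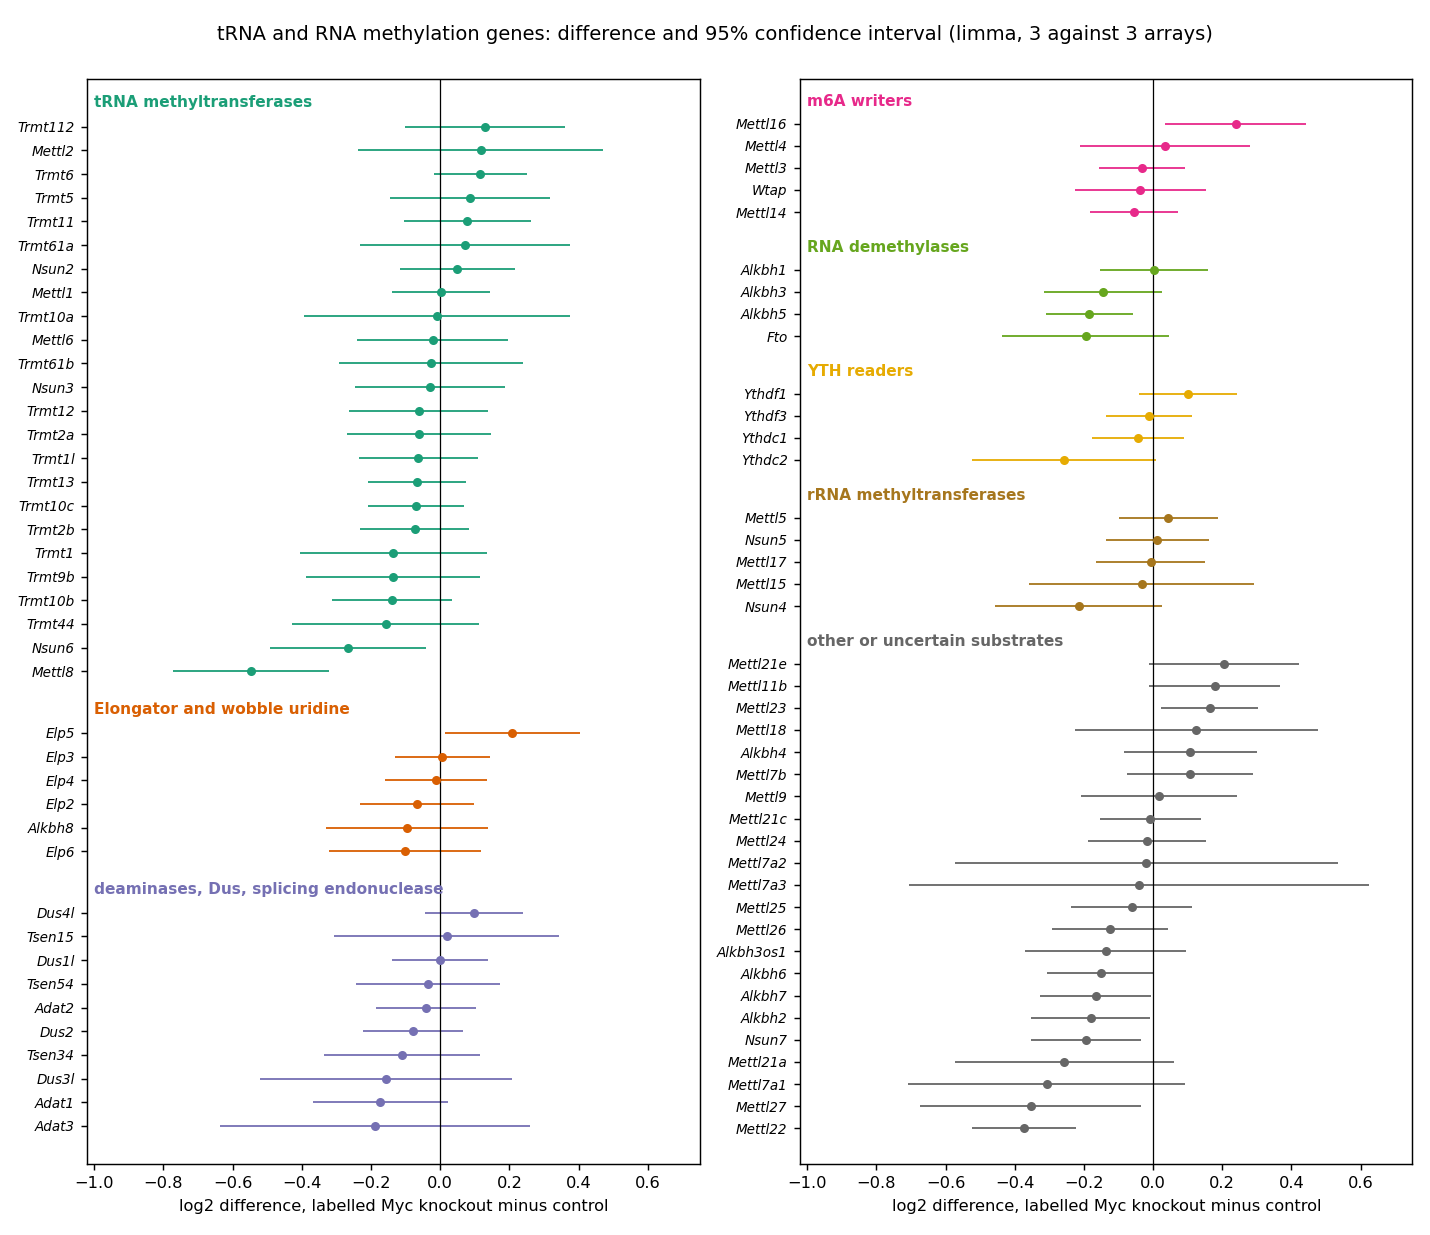
Log2 difference (x axis, arrays labelled Myc knockout minus control) of each of the 80 genes, grouped by role, with limma's 95% confidence interval (3 against 3 arrays). Mettl8 (−0.55) and Mettl22 (−0.37) are farthest from 0 relative to their intervals, and 42 of the 80 points lie within 0.1 of 0.

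The 2 genes with the smallest p-values were both lower on the arrays labelled Myc knockout, and their promoters are shown with those of 2 genes that carry the E-box CACGTG, the hexamer known for binding MYC with its partner MAX. Shown are the 250 bases before the transcription start of RefSeq's promoter table (GRCm38.p6), 5′ to 3′ on the gene's strand, with CACGTG in capitals. The related hexamer CACGCG, searched on both strands, is in capitals too and appears in Mettl22 as its reverse complement. The regions are chr2:71055607-71055856, minus strand (Mettl8), chr16:8470563-8470812, plus strand (Mettl22), chr17:56997089-56997338, plus strand (Alkbh7), and chr2:180920937-180921186, minus strand (Ythdf1).
Mettl8: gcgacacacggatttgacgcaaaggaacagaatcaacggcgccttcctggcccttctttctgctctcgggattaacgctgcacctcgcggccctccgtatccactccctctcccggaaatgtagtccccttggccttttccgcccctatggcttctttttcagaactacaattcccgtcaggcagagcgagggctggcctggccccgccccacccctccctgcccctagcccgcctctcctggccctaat
Mettl22: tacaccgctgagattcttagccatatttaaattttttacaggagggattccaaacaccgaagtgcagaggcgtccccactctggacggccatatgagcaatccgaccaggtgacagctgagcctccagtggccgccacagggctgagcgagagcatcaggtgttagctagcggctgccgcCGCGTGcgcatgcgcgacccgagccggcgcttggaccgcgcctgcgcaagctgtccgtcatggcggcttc
Alkbh7: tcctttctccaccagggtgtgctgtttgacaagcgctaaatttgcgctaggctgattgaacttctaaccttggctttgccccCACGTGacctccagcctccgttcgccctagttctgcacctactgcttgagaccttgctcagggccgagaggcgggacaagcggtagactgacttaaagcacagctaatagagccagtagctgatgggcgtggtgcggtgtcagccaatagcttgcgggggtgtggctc
Ythdf1: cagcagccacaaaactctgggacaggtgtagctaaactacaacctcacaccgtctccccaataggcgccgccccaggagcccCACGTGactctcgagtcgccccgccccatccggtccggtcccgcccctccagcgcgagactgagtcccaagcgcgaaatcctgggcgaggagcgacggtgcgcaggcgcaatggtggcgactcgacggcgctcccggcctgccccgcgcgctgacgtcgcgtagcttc
The Mettl8 window held neither hexamer and the Mettl22 window held CACGCG once. CACGTG begins 168 bases before the start in Alkbh7 and also 168 in Ythdf1, whose log2 differences had opposite signs (−0.17 and 0.10). The table matched 64 of the 80 genes, with 77 promoters. CACGTG, which reads the same on both strands, was in 5 of the 77 (6.49%, against 6.78% of 21141 promoters of all genes tested), in the genes Alkbh7, Trmt10a, Trmt61b, Tsen54 and Ythdf1. CACGCG on either strand was in 12 (15.6%, against 10.2%), with a mean GC content of 59.2% in the 77 promoters and 55.8% in all; no member's promoter held both hexamers or an overlap of them. The 5 genes with CACGTG had a median log2 difference of −0.027, against −0.044 for the 59 without. A match describes these letters only and is no evidence of binding.

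Of the 24 tRNA methyltransferase genes and partners, 0 passed over all genes, and the median was −0.045. At an unadjusted p under 0.05, 0 were higher and 2 were lower (8.33%), beside 6.97% and 7.91% of all genes. At that p 1 was lower without control replicate 3 or after cyclic loess, beside 6.52% and 6.83% of all genes. With an intensity trend or after cyclic loess 1 was higher, beside 7.26% and 7.34%. Without Myc knockout replicate 1, 2 were higher, beside 6.61%. Mettl8, which encodes the mitochondrial tRNA 3-methylcytidine methyltransferase, was at 5.90, 5.84 and 6.09 on the arrays labelled Myc knockout, against 6.61, 6.48 and 6.38 on control arrays. The groups did not overlap, and the difference was the largest among the 80 genes (−0.55 ± 0.094, fold 0.685, 95% confidence interval 0.585 to 0.801, limma's adjusted p = 0.0797). It stayed between −0.62 and −0.49 without any one array, and it passed in limma with the prior variance following intensity (an intensity trend) (adjusted p = 0.0409) and with testing limited to genes at or above the median level (adjusted p = 0.0266). Nsun6, a tRNA 5-methylcytosine methyltransferase gene, was at 4.44, 4.18 and 4.44 on the arrays labelled Myc knockout, against 4.56, 4.57 and 4.72 on control arrays. These groups did not overlap either (−0.27 ± 0.094, limma's adjusted p = 0.275).

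Other genes for cytosine methylation of tRNA had smaller differences. Mettl2 and Mettl6, whose products make 3-methylcytidine in cytosolic tRNAs, differed by 0.12 ± 0.15 and −0.022 ± 0.091. Nsun2, the main cytosolic tRNA 5-methylcytosine methyltransferase gene, was at 8.31, 8.37 and 8.43 on the arrays labelled Myc knockout, against 8.41, 8.30 and 8.25 on control arrays. These values overlapped, and its interval ran from 0.923-fold to 1.16-fold. Nsun3, which acts on mitochondrial tRNA, differed by −0.029 ± 0.090.

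The subunits of the enzyme that makes 1-methyladenosine in tRNA were both slightly higher, without passing. Trmt6, its non-catalytic subunit, was at 6.64, 6.71 and 6.74 on the arrays labelled Myc knockout, against 6.56, 6.58 and 6.60 on control arrays. The 2 groups did not overlap, at a log2 difference of 0.12 ± 0.057 (limma's adjusted p = 0.394). Trmt61a, the catalytic subunit, had 4.72, 4.41 and 4.22 on the arrays labelled Myc knockout, against 4.38, 4.31 and 4.44 in controls, with a spread between arrays larger than its difference of 0.071 ± 0.13; it was −0.064 when Myc knockout replicate 1 was left out. Trmt61b and Trmt10c, which serve mitochondrial tRNA, differed by −0.027 ± 0.11 and −0.070 ± 0.058, and RefSeq's table lists the Trmt61b record as a long noncoding RNA.

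Trmt112, the shared activator of several methyltransferases, was at 6.57, 6.77 and 6.88 on the arrays labelled Myc knockout, against 6.71, 6.52 and 6.60 on control arrays. Its groups overlapped (0.13 ± 0.097, adjusted p = 0.568 in limma), and its partners Trmt11, Mettl5 and Alkbh8 differed by 0.078, 0.044 and −0.096. Mettl1, which makes 7-methylguanosine in tRNA, was at 5.33, 5.28 and 5.19 on the arrays labelled Myc knockout, against 5.27, 5.25 and 5.27 on control arrays. That difference of 0.0027 ± 0.060 had a 95% interval from 0.907-fold to 1.11-fold. The other members of this role group (Trmt1, Trmt1l, Trmt2a, Trmt2b, Trmt5, Trmt10a, Trmt10b, Trmt12, Trmt13, Trmt44 and the near-background Trmt9b) lay between −0.16 and 0.087.

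Among 5 measured subunits of Elongator, which starts the modification of wobble uridines, and Alkbh8, which completes it by methylation, 0 passed over all genes and 1 was higher at an unadjusted p under 0.05 (16.7%, beside 6.97% of all genes). That count was 0 under median centring, with a replicate block, and when control replicate 1, control replicate 3, Myc knockout replicate 1 or Myc knockout replicate 3 was left out. Elp5, an accessory subunit gene, was at 7.30, 7.07 and 7.23 on the arrays labelled Myc knockout, against 6.91, 7.07 and 7.01 on control arrays. The groups were separate by a narrow margin, with a lowest value of 7.073 under the knockout label and a highest control value of 7.065 (0.21 ± 0.081, limma's adjusted p = 0.308). Elp3, the catalytic subunit gene, had 6.87, 6.89 and 6.98 on the arrays labelled Myc knockout, against 6.90, 6.93 and 6.89 on control arrays, and its interval ran from 0.914-fold to 1.10-fold. Elp6 differed by −0.10 ± 0.092 and Alkbh8 by −0.096 ± 0.098, while Elp2 and Elp4 stood at −0.067 and −0.013.

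Genes for deamination, dihydrouridine and splicing of tRNA had 8 negative differences of 10. Beside this, 47.8% of all genes and 58% of genes at or above the median level were negative. In limma 0 of the 10 reached an unadjusted p under 0.05 in either direction, beside 6.97% of all genes higher and 7.91% lower. With 10 genes, such a count says little. Under median centring, without control replicate 2 and without Myc knockout replicate 1, 1 of the 10 was lower at that p, beside 9.61%, 6.78% and 6.85% of all genes. Adat2 and Adat3 encode the pair that converts wobble adenosine to inosine. Adat2 was at 5.02, 5.03 and 4.99 on the arrays labelled Myc knockout, against 4.99, 5.05 and 5.12 on control arrays (−0.041 ± 0.060). For Adat3 the arrays labelled Myc knockout gave 3.63, 3.63 and 3.85, against 3.53, 4.28 and 3.85 in controls, and the difference of −0.19 ± 0.19 became 0.011 without control replicate 2. Adat1, an adenosine deaminase of alanine tRNA, was below the median level and separate between groups, at 3.22, 3.24 and 3.20 on the arrays labelled Myc knockout, against 3.36, 3.27 and 3.55 on control arrays (−0.17 ± 0.081, limma's adjusted p = 0.379).

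Dihydrouridine synthase genes ran from −0.16 (Dus3l) to 0.097 (Dus4l, ± 0.059), with Dus1l at −0.00080 and Dus2 at −0.078. The tRNA splicing endonuclease genes Tsen15, Tsen34 and Tsen54 differed by 0.019, −0.11 and −0.034. Tsen54 was at 6.07, 5.96 and 5.76 on the arrays labelled Myc knockout, against 5.96 on all 3 control arrays, a case of equal RMA values.

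The core writer genes of N6-methyladenosine had differences within 0.1 of 0 on the log2 scale. Mettl3, the catalytic subunit gene, was at 6.26, 6.25 and 6.23 on the arrays labelled Myc knockout, against 6.29, 6.30 and 6.25 on control arrays. Mettl14, its partner, had 6.07, 6.06 and 6.05 on the arrays labelled Myc knockout, against 6.09, 6.15 and 6.09 on control arrays. The intervals ran from 0.897-fold to 1.07-fold for Mettl3 and from 0.882-fold to 1.05-fold for Mettl14, whose groups did not overlap but differed by only −0.054 ± 0.053. Wtap, the adaptor gene, was at 5.53, 5.36 and 5.58 on the arrays labelled Myc knockout, against 5.59, 5.45 and 5.54 on control arrays (−0.037 ± 0.079). Under cyclic loess Mettl3 and Wtap changed sign, at 0.0094 and 0.011.

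Mettl16, a separate writer known for the U6 small nuclear RNA and the S-adenosylmethionine synthetase mRNA, was the 1 writer gene of 5 with an unadjusted p under 0.05 (20%, beside 6.97% of all genes higher). There were 0 under median centring, with the replicate number as a block, and without control replicate 1, control replicate 3, Myc knockout replicate 2 or Myc knockout replicate 3. Mettl16 was at 6.93, 7.03 and 7.17 on the arrays labelled Myc knockout, against 6.82, 6.88 and 6.71 on control arrays. All values under the knockout label were above all control values (0.24 ± 0.085, limma's adjusted p = 0.276). Mettl4, which methylates the U2 small nuclear RNA, differed by 0.035 ± 0.10.

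**Figure D3:**
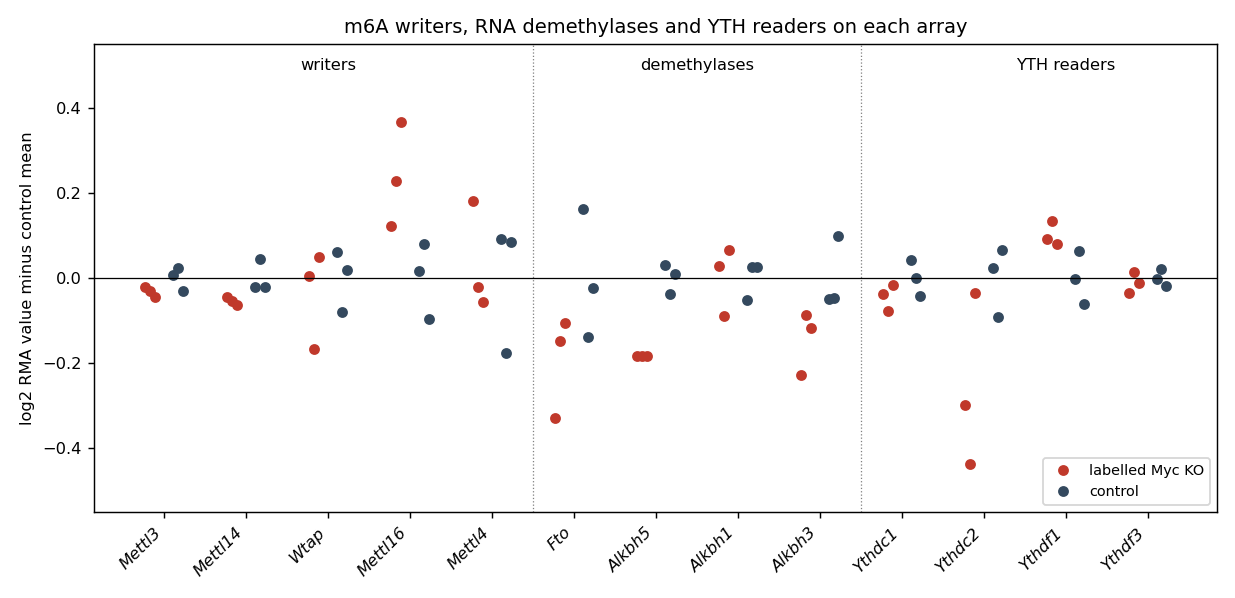
Log2 RMA value of each array minus the control mean of that gene (y axis) for 5 writer, 4 RNA demethylase and 4 YTH reader genes, with arrays labelled Myc knockout in red and control arrays in dark blue (3 each). Mettl16 lies above its controls, Alkbh5 and Alkbh3 lie below theirs, and the points of Mettl3, Mettl14 and Ythdf3 lie within 0.1 of 0.

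Of the 4 RNA demethylase genes, 3 were negative, beside 47.8% of all genes and 58% of genes at or above the median level. Of the 4, 1, Alkbh5, was lower at an unadjusted p under 0.05 (25%, beside 7.91% of all genes). Without control replicate 2, 2 were lower at that p, beside 6.78% of all genes. Alkbh5, an eraser of N6-methyladenosine, was at 7.76 on all 3 arrays labelled Myc knockout, against 7.98, 7.91 and 7.96 on control arrays. The groups did not overlap (−0.18 ± 0.052, fold 0.880, 95% confidence interval 0.807 to 0.960, limma's adjusted p = 0.196), and the equal values under the knockout label give an SD of 0. Fto, the other eraser of this mark, was at 6.36, 6.54 and 6.59 on the arrays labelled Myc knockout, against 6.86, 6.55 and 6.67 on control arrays. The groups overlapped at 1 array (−0.19 ± 0.10, limma's adjusted p = 0.416). Alkbh3, which removes methyl groups from tRNA and from alkylated DNA, was at 6.90, 7.04 and 7.01 on the arrays labelled Myc knockout, against 7.08, 7.08 and 7.23 on control arrays, so that all 3 lay below the controls (−0.14 ± 0.071, limma's adjusted p = 0.399). Alkbh1, a tRNA 1-methyladenosine demethylase gene, differed by 0.0023 ± 0.065.

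None of the 4 measured YTH reader genes had an unadjusted p under 0.05 in limma as deposited, beside 6.97% of all genes higher and 7.91% lower. Ythdc2 was lower at that p with a replicate block, an intensity trend, median centring, the level filter, and without Myc knockout replicate 3. In these settings 6.73%, 8.85%, 9.61%, 15.5% and 7.02% of the genes tested were lower. Ythdf1, a cytoplasmic reader gene, was at 7.06, 7.10 and 7.05 on the arrays labelled Myc knockout, against 6.96, 7.03 and 6.91 on control arrays. Its groups were separate (0.10 ± 0.059, limma's adjusted p = 0.465). The cytoplasmic reader gene Ythdf3 and the nuclear reader gene Ythdc1 differed by −0.011 ± 0.052 and −0.044 ± 0.055. Ythdc2, an RNA helicase gene known from meiosis, was at 5.68, 5.54 and 5.94 on the arrays labelled Myc knockout, against 6.00, 5.89 and 6.04 on control arrays, with overlap through a single array on either side (−0.26 ± 0.11, limma's adjusted p = 0.347).

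Ribosomal RNA methyltransferase genes and the mitochondrial ribosome factor Mettl17 had a median of −0.0068. Of these 5, 0 had an unadjusted p under 0.05, beside 6.97% of all genes higher and 7.91% lower. At that p 1 was lower under median centring and without control replicate 2, beside 9.61% and 6.78% of all genes. Nsun4, which methylates mitochondrial ribosomal RNA, was at 4.42, 4.42 and 4.32 on the arrays labelled Myc knockout, against 4.64, 4.402 and 4.77 on control arrays, with overlap through control replicate 2 (−0.22 ± 0.10, limma's adjusted p = 0.378). Mettl5, of the small-subunit RNA, Nsun5, of the large-subunit RNA, and Mettl15, of the mitochondrial small subunit, differed by 0.044, 0.012 and −0.033.

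Of the 22 members with other or uncertain substrates, 1 was higher and 5 were lower at an unadjusted p under 0.05 (4.55% and 22.7%). Beside these stand 6.97% and 7.91% of all genes, and 7.76% and 13.8% of genes at or above the median level. The median of the 22 was −0.051. With an array left out, 1 to 4 of the 22 were lower and 0 to 2 higher, beside 6.27% to 7.28% and 5.65% to 6.78% of all genes. There was 1 lower when control replicate 2 was omitted, 2 when control replicate 3 was, and 3 when Myc knockout replicate 1 or replicate 3 was. Cyclic loess gave 2 lower, beside 6.83% of all genes. Mettl22, a protein lysine methyltransferase gene in human, was at 4.82, 4.75 and 4.87 on the arrays labelled Myc knockout, against 5.13, 5.21 and 5.22 on control arrays. This was the smallest p of the 80 genes (−0.37 ± 0.062, fold 0.772, 95% confidence interval 0.696 to 0.856, limma's adjusted p = 0.0767). The difference stayed between −0.40 and −0.34 without any one array, and limma called it with an intensity trend (adjusted p = 0.0461) and in the brighter genes alone (adjusted p = 0.0242). With the trend, 2 of the 80 genes, Mettl8 and Mettl22, were lower and 0 higher, beside 0.897% and 0.699% of all genes. In the brighter genes alone the same 2 of 71 members tested were lower and 0 higher, beside 2.98% and 1.76% of the genes tested.

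Mettl23, an arginine methyltransferase gene of histones, was the 1 member of this role group higher at that p, at 6.31, 6.38 and 6.38 on the arrays labelled Myc knockout, against 6.23, 6.13 and 6.21 on control arrays (0.16 ± 0.058, limma's adjusted p = 0.277). Mettl27, of unknown substrate, was at 4.43, 4.35 and 4.56 on the arrays labelled Myc knockout, against 4.51, 4.99 and 4.89 in controls, with overlap between the groups (−0.35 ± 0.13, limma's adjusted p = 0.298). Nsun7, below the median level, differed by −0.19 ± 0.066. Alkbh2, a DNA repair dioxygenase gene, was at 4.98, 5.15 and 4.99 on the arrays labelled Myc knockout, against 5.29, 5.21 and 5.16 on control arrays (−0.18 ± 0.072, limma's adjusted p = 0.314). Alkbh7, of a mitochondrial dioxygenase, differed by −0.17 ± 0.067 (limma's adjusted p = 0.319). Alkbh6 and Mettl26 also had separate groups, at −0.15 and −0.12, and the remaining members ran from −0.31 (Mettl7a1, of the family with near-identical copies) to 0.20 (Mettl21e, at 1.37 on average and so near background).

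**Figure D4:**
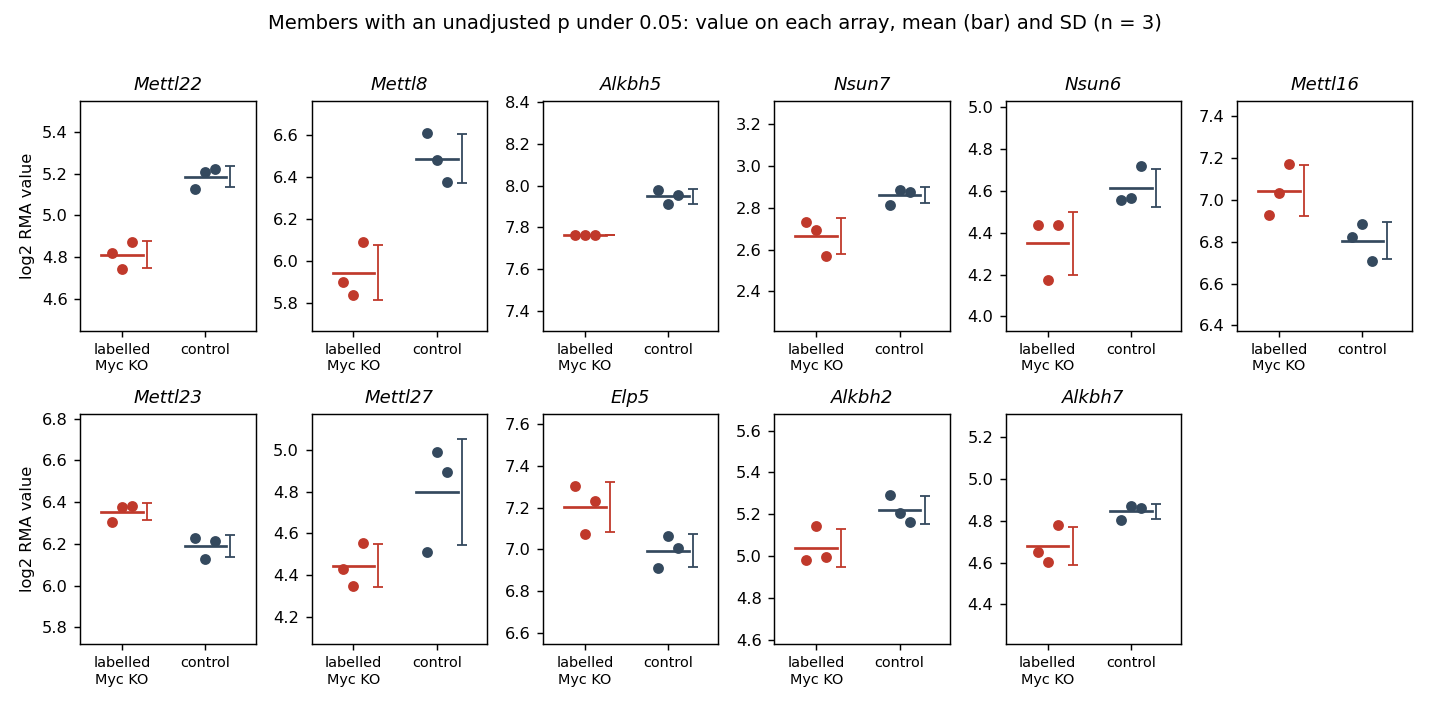
Log2 RMA value (y axis, each panel spanning 1.1) on each array for the 11 genes with an unadjusted p under 0.05, with the arrays labelled Myc knockout (red) left of control arrays (dark blue), the mean as a bar and the SD as a whisker (n = 3 each). Mettl27 is the 1 gene of the 11 whose groups overlap, and Alkbh5 has 3 equal values of 7.76.

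In all, the groups did not overlap for 5 genes that were higher and 13 that were lower. These are 6.25% and 16.2% of the 80, beside 9.25% and 10.6% of all genes in those directions. For the 71 members at or above the median level the shares were 7.04% and 15.5%, beside 10.8% and 18.6% of all genes at that level. The role groups shared the small size of their medians, from −0.16 (RNA demethylases, 4 genes) to −0.0068 (rRNA methyltransferases, 5 genes), with no group median above 0 as deposited. Under cyclic loess the medians of the 5 writer genes and the 5 rRNA genes were above 0, at 0.011 and 0.039. In the deposited values the writers' median was 0.028 when Myc knockout replicate 2 was left out, and the rRNA median reached 0.0067 with a single array left out. After cyclic loess the median of the 10 deaminase, dihydrouridine synthase and splicing genes was −0.015, against −0.059 as deposited.

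Other RNA modification genes, outside the symbol rule, were listed for their known role and 70 were measured. Of these, 0 passed over all genes in limma, and the median was 0.021 with 38 positive (54.3%, beside 52.2% of all genes). An unadjusted p under 0.05 was reached by 4 upward and 4 downward (5.71% each), beside 6.97% and 7.91% of all genes. The 3 smallest p-values among higher genes were those of Fbl, the rRNA methyltransferase fibrillarin (0.34 ± 0.067, adjusted p = 0.1 in limma), Dimt1, an rRNA dimethyladenosine transferase (0.32 ± 0.077, adjusted p = 0.148), and Lage3, a subunit of the tRNA threonylcarbamoyladenosine complex (0.62 ± 0.15, adjusted p = 0.148, below the median level at 2.55 ± 0.21 under the knockout label and 1.94 ± 0.23 in controls). Among lower genes they were Trpt1, a tRNA phosphotransferase (−0.47 ± 0.12, adjusted p = 0.165), Mepce, which caps the 7SK RNA (−0.25 ± 0.068, adjusted p = 0.182), and Bcdin3d, a methyltransferase of the histidine tRNA end in human (−0.47 ± 0.15, adjusted p = 0.242). Fbl passed in the same 2 limma settings as Mettl8, with adjusted p = 0.043 (intensity trend) and adjusted p = 0.0357 (brighter genes alone). The 19 measured cytosolic tRNA synthetase genes, whose products charge the same tRNAs, had a median of 0.070, with 0 past the adjusted threshold. Of the 19, 16 were positive (84.2%), beside 52.2% of all genes and 42% of genes at or above the median level. An unadjusted p under 0.05 was reached by 4 upward (21.1%) and 0 downward, beside 6.97% and 7.91% of all genes. Among genes at or above the median level, these shares were 7.76% and 13.8%. The difference between these lists and the 80 genes was not tested.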

How the data were processed

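Sample titles gave the groups. The deposited values are log2 intensities that the authors summarised with RMA, per the submitters' processing notes, which also list limma 3.14.4. RMA brings the arrays close to 1 distribution, so a global change in RNA content cannot be seen. The deposited values still differed a little, with medians from 3.319 to 3.385. Upper quartiles were 5.832 to 5.863 on control arrays and 5.769 to 5.808 on the arrays labelled Myc knockout. Lower quartiles were 2.045 to 2.083 and 2.100 to 2.134. The part of this in the negative majority was not tested. The probe set definition and the build are not stated in the sources used. The table held 25206 probe sets with gene numbers as identifiers; 23185 had 1 symbol in the platform annotation, 0 had several, and 2021 are unnamed here. All 23185 were found in RefSeq's GRCm38.p6 gene table, used for gene type.

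The fit used limma 3.58.1 (lmFit, eBayes; R 4.3.3) over the 23185 genes, two-sided, with Benjamini-Hochberg adjustment over all of them and no filter; figures used matplotlib 3.10.9. No read depth exists for arrays; 3 arrays a group limit the precision. On 10 simulated sets of 23185 genes for this comparison, 35.4% of genes changed by 0.5 on the log2 scale were recovered and 84.4% of those changed by 1, with 5.2% false calls.

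The genes, role groups and lists were chosen with earlier results of these data known. Named were Myc; the 2 genes of each role group with the smallest p; up to 12 in each direction with an unadjusted p under 0.05; a fixed set of core subunits; the genes with the highest and lowest value (Nsun2 and Mettl21e); and 3 other RNA modification genes in each direction. Further genes were named to account for all members. Alternatives were a replicate block, an intensity trend, array weights, median centring, cyclic loess, a level filter, all probe sets and each array left out. Of 75 other RNA modification symbols listed, 70 were measured. The replicate numbers do not pair the arrays: deviations of same-numbered arrays correlated at −0.07, −0.012 and −0.017.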

Additional observations from a re-analysis of the deposited data

How the results depend on the processing

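Of the 80 genes, 0 were called higher under any alternative, and 0 lower except with an intensity trend or when genes below the median level were left out, where 2 were lower (Mettl8 and Mettl22). The second tests fewer genes, with 71 of the 80. With an array left out, limma called 0 genes of the whole table, except 2 higher without Myc knockout replicate 1 and 1 lower without Myc knockout replicate 3. A count of 0 among the 80 was therefore nearly fixed in advance in those fits and with a replicate block. With the replicate number as a block, 0 genes of the 80 were higher at an unadjusted p under 0.05 and 8 were lower, beside 6.41% and 6.73% of all genes, and no gene of the whole table passed in limma; no array labelled Myc knockout correlated best with the control of its own number. The count of higher genes at that p was 3 as reported, 0 under median centring and 1 to 5 with each array left out. The count of lower genes was 8 as reported, 4 under cyclic loess and 4 to 7 with each array left out. Over all genes tested, 5.24% to 8.56% were higher and 6.27% to 15.5% lower at that p under the alternatives, which is the background for the role groups too. The median over the 80 genes ran from −0.063 (median centring) to −0.0072 (cyclic loess), and the cause of these shifts was not tested.

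Over 42 named genes and 542 values under alternatives, 517 kept their sign and side of the threshold, 18 changed sign and 7 passed only under an alternative. With a replicate block or an array left out, almost no gene of the whole table passed, so the side of the threshold was nearly fixed there. The genes that passed only under an alternative were Mettl8, Mettl22 and Fbl (with an intensity trend and with testing limited to the brighter genes) and Myc (in the brighter genes alone, limma's adjusted p = 0.0487). Sign changes were as follows. Under cyclic loess they were Mettl3 (0.0094), Wtap (0.011), Ythdf3 (0.022), Adat2 (0.0057), Tsen54 (0.010) and the writers' median (0.011). The median of the deaminase, dihydrouridine synthase and splicing genes moved to −0.015 there and kept its sign. Under median centring the sign changes were Mettl1 (−0.022) and Elp3 (−0.018), and with array weights Mettl1 (−0.0015). With each array left out, the range was −0.081 to 0.028 for Wtap, −0.023 to 0.0012 for Ythdf3, −0.028 to 0.042 for Mettl1, −0.026 to 0.028 for Elp3, −0.064 to 0.18 for Trmt61a, −0.36 to 0.011 for Adat3, −0.10 to 0.051 for Tsen54 and −0.038 to 0.028 for the writers' median. The rRNA methyltransferase median was 0.039 under cyclic loess and −0.058 to 0.0067 with each array left out. Differences of the 6 genes below the lower quartile are limited by background.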
